A study of Mus musculus with 4 samples.

Results

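Integrins are paired cell surface receptors, each made of an α and a β chain, that let lymphocytes hold on to other cells and to matrix. The genes described here are 10 genes of that system, taken by name from the RNA tables. They are the integrin α chain genes Itgal, Itga4 and Itgav, the β chain genes Itgb1, Itgb2 and Itgb7, the ligand genes Icam1 and Icam2, and the adaptor genes Tln1 and Fermt3. All 10 had a row among the 13792 genes measured, and all 10 were among the 12283 genes that reached a value of 1 in either of the libraries.

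RNA was sequenced from naive B cells of C57BL/6 mice, an inbred strain, that received a retrovirus in culture under stimulation by 2 antibodies, anti-IgM against the B cell receptor and anti-CD40 against the receptor for T cell help. One group carried the RVKM-Empty virus, with no insert, and the other RVKM-Ascl2, which carries the transcription factor gene Ascl2. As far as the labels show, both groups share strain, infection and stimulation, and differ by the insert. Each group was 1 library, so no value has a replicate error, no difference has a replicate check, and no p-value was computed. The labels give no culture time, no age, no number of mice and no share or sorting of infected cells. A library may therefore hold uninfected cells, and fewer cells that make an RNA cannot be told apart from less of that RNA per cell. The series also holds 2 chromatin samples of germinal centre B cells, which were not analysed here.

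In lymphocytes the pair of Itgal and Itgb2, known as LFA-1, binds the ICAM proteins on other cells. The pair of Itga4 and Itgb1, known as VLA-4, binds VCAM-1 and fibronectin, and Itga4 with Itgb7 binds the gut addressin MAdCAM-1. In the germinal centre, B cells use LFA-1 and VLA-4 to hold on to follicular dendritic cells that display antigen. Integrins rest in a bent, weakly binding form until talin, the product of Tln1, and kindlin-3, the product of Fermt3, bind the tail of the β chain and switch them on. The small GTPase Rap1 brings talin to the membrane after signals from the B cell or chemokine receptors.

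Ascl2 is a basic helix-loop-helix protein, a class that binds short sequences called E-boxes, spelled CANNTG, in which N is any base. The 250 bases before the start of transcription are shown for Itga4, the 1 gene of the 10 with more than a 1.5-fold difference, and for Icam1, the gene with the most E-boxes among those found. Sequences are from RefSeq on GRCm38.p6, are written in the direction of the gene, and were held for 7 of the 10 genes (all but Itgal, Itgb2 and Icam2). For Itgb7 and Itgav the start used is that of a transcript that begins inside the annotated gene, so their windows lie within the gene span. Capitals mark CANNTG, a motif that reads the same on both strands in this spelling, and in Icam1 also GGAAATTCC, a form of the site bound by NF-kB, which was searched on both strands.
Itga4, chr2:79255176-79255425, plus strand: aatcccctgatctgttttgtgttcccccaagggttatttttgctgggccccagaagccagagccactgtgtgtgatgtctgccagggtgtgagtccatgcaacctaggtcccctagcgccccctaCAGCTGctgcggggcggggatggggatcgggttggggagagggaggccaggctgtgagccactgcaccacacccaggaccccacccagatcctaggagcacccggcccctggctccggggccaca
Icam1, chr9:21015690-21015939, plus strand: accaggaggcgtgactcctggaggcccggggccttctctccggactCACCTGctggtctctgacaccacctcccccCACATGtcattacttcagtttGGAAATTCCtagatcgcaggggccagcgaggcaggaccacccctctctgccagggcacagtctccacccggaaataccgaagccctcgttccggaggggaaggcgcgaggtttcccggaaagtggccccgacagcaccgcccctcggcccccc

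The E-box of Itga4 reads CAGCTG and lies 125 to 120 bases before the start. The 2 E-boxes of Icam1 read CACCTG and CACATG, at 204 to 199 and 174 to 169 bases before the start, and GGAAATTCC lies at 153 to 145. In Fermt3, Tln1 and Itgb7 there was 1 E-box each, shown in capitals with up to 10 bases on either side for comparison of the core letters.
Fermt3, chr19:7019685-7019710, minus strand: ccaccagggcCAGGTGgatttctgag
Tln1, chr4:43562800-43562825, minus strand: caccaggatcCATTTGggatatctat
Itgb7, chr15:102232117-102232142, minus strand: gcgtctgtgaCATGTGtgggggcagg

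The Tln1 E-box lies inside a neighbouring gene, Creb3, on the plus strand of chromosome 4 from 43562658 to 43567061. No CANNTG was found in the same window of Itgav or Itgb1. Such matches are common. Of 32851 promoters of the same length, 66.2% held CANNTG and 13.0% held CAGCTG, while 0.286% held GGAAATTCC on either strand. Among genes with a promoter sequence, CAGCTG was found in 13.7% of 227 genes at least 1.5-fold higher with Ascl2, in 15.8% of 284 at least 1.5-fold lower, and in 13.3% of 8123 between. For CANNTG the shares in the same classes were 69.6%, 56.3% and 61.0%. Promoter sequences were held for 227 of the 615 genes higher and 284 of the 530 lower, so many genes of these classes are left out. A gene was counted if any of its promoters held the motif, and these differences between classes were not tested. A match describes the letters and does not show that a protein binds there.

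The values are abundances per gene, scaled for depth and, as far as they show, for gene length. Their unit is not named in the sources used here. Before each log2 ratio of Ascl2 over the empty virus was taken, 1 was added to both values, so ratios of weakly expressed genes are understated. The summed values were 750692 with the empty virus and 763932 with Ascl2, and absolute depth is unknown. Ascl2 itself was 0.0809 with the empty virus and 29.4 in the Ascl2 library, in the direction of the labels. The B cell marker genes Cd79a, Cd79b, Ms4a1, Pax5, Cd22 and Ebf1 all had values, from 22.0 to 748 with the empty virus and from 24.3 to 626 with Ascl2.

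Itga4 was the gene of the 10 that differed most between the libraries. Its value was 7.97 with the empty virus and 13.9 with Ascl2, 1.75 times as high, and its log2 ratio was 0.74. Of the 12283 genes, 376, or 3.06%, had a higher log2 ratio. At least 1.5-fold higher with Ascl2 was thus 1 of the 10 genes, where the background over all genes was 5.01%, and at least 1.5-fold lower was none of the 10, where the background was 4.31%. Neither count stands apart from those shares. None of the 10 passed 2-fold in either direction, against 1.53% of all genes that were at least 2-fold higher and 0.716% that were at least 2-fold lower.

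The median log2 ratio of the 10 genes was -0.05, beside -0.01 over all 12283 genes. Of the 10, 4 had a ratio above 0 and 6 below, and 48.4% of all genes had a ratio above 0. The 9 genes other than Itga4 lay between -0.35 and 0.11. Their sizes were thus mostly like those of the bulk of genes, since the middle 50% of all genes ran from -0.22 to 0.19.

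**Figure D1:**
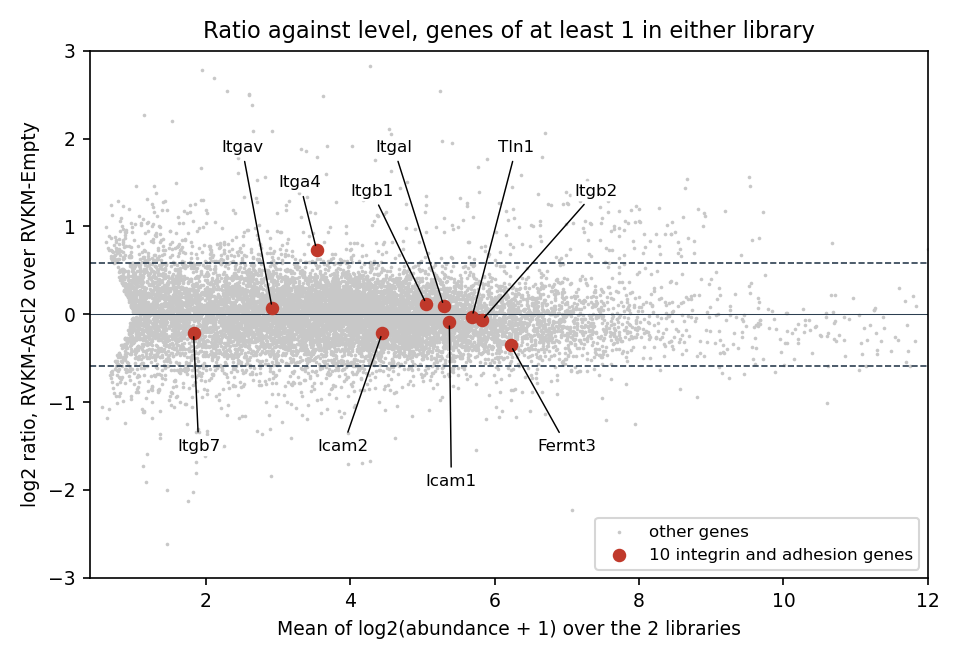
Log2 ratio of the Ascl2 over the empty-virus library (vertical axis) against the mean of log2 of the value plus 1 over both libraries (horizontal axis), for genes that reached a value of 1 in either of the libraries. Each grey point is a gene and the 10 integrin and adhesion genes are red. Dashed lines mark 1.5-fold, and 28 genes lie outside the drawn range. Itga4, at 0.74, is the red point above the upper line, and the other 9 lie between the lines.

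The chains of LFA-1 had similar values in both libraries. Itgal, the α chain, was 37.1 with the empty virus and 39.6 with Ascl2 (log2 ratio 0.09). Itgb2, the β chain that LFA-1 shares with the myeloid integrins, was 57.0 and 54.2 (-0.07). With the empty virus, 80.5% of all measured genes had a lower value than Itgal and 87.1% a lower value than Itgb2, so both stood in the upper part of the range. On the length-scaled values, Itgal was 0.651 times Itgb2 with the empty virus and 0.730 times with Ascl2. Gene length cancels when these 2 quotients are set against each other, and the second was 1.12 times the first.

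The chains of VLA-4 differed unevenly. Against the Itga4 values of 7.97 and 13.9, Itgb1, the β chain that pairs with most matrix-binding α chains, was 31.0 and 33.6 (log2 ratio 0.11). The β chain was thus the more abundant of the pair in both libraries on the length-scaled values. Itga4 was 0.257 times Itgb1 with the empty virus and 0.415 times with Ascl2, a quotient 1.61 times as high in the second library. This comparison within each library does not depend on how the 2 libraries are scaled to each other.

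Itgb7, the other partner of Itga4 and the β chain of gut-homing lymphocytes, had the lowest values of the 10. It was 2.82 with the empty virus and 2.30 with Ascl2 (log2 ratio -0.21). In the empty-virus library 26.9% of measured genes had a lower value. Itga4 and Itgb7 lay on opposite sides of 0, and Itga4 was 2.83 times Itgb7 with the empty virus and 6.05 times with Ascl2. That quotient rests on the low Itgb7 values, for which counting error is largest and cannot be given without the depth.

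Itgav, an α chain of receptors for vitronectin and for latent TGF-β, was 6.37 and 6.74 (log2 ratio 0.07). Its level with the empty virus was close to that of Itga4, which was 1.25 times as high there and 2.07 times as high with Ascl2. Itgav and Itga4 are both long genes on chromosome 2, with spans of 84615 and 77689 bases, and the log2 ratio was related to span over the 11327 genes of known span (Spearman rho 0.19 across genes, which do not count as independent replicates). The running median at the span of Itga4 was 0.07, and with that trend removed Itga4 was 0.66 and Itgav -0.02. The sign for Itgav thus depended on the span correction, and Itga4 was past 1.5-fold with and without it.

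The 2 ligand genes were slightly lower with Ascl2 in the values as deposited. Icam1, the inducible ligand of LFA-1 that activated B cells also carry, was 41.7 with the empty virus and 39.2 with Ascl2 (log2 ratio -0.09). Icam2, the more constant ligand of leukocytes and endothelium, was 22.4 and 19.2 (-0.21). Icam2 was 0.537 times Icam1 with the empty virus and 0.491 times with Ascl2. The sign for Icam1 depended on scaling: with the Ascl2 library rescaled to the same total after leaving out immunoglobulin genes and Pcdh15, which take a larger share there, its log2 ratio was 0.004, and that of Icam2 was -0.12.

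Fermt3, the adaptor that activates integrins of blood cells, had the highest value of the 10 in both libraries and the lowest log2 ratio. It was 83.2 with the empty virus and 65.1 with Ascl2 (log2 ratio -0.35), short of 1.5-fold, and 13.8% of all genes had a lower log2 ratio. Tln1, which encodes talin-1, was 51.1 and 49.9 (-0.03), among the smallest differences measured, since 8.67% of all genes lay closer to 0. Tln1 was 0.614 times Fermt3 with the empty virus and 0.767 times with Ascl2. The sign for Tln1 was positive, at 0.06, under the rescaling without immunoglobulin genes and Pcdh15, while Fermt3 was still lower, at -0.26.

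**Figure D2:**
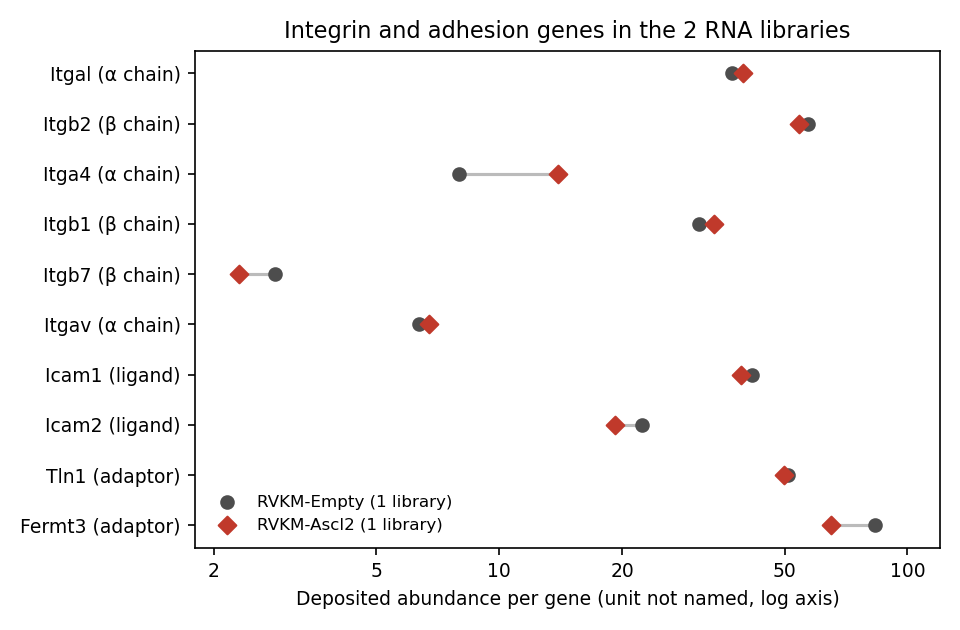
Deposited abundance (horizontal log axis, unit not named) of each of the 10 genes in the empty-virus library (grey circles) and the Ascl2 library (red diamonds), 1 library per group and no error bars for that reason. The pair of points is far apart for Itga4, at 7.97 and 13.9. For the others the points nearly touch or the Ascl2 value is somewhat lower, as for Fermt3 at 83.2 and 65.1.

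By level, from the highest, the order with the empty virus was Fermt3, Itgb2, Tln1, Icam1, Itgal, Itgb1, Icam2, Itga4, Itgav and Itgb7. With Ascl2 the order was the same but for Itgal and Icam1, which changed places at 39.6 and 39.2. With 1 library per group there is no spread against which to judge neighbours, and comparisons between genes hold only as far as the values are scaled for length. The 10 values summed to 341 with the empty virus and 324 with Ascl2.

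Beyond the chains already described, 7 of the 20 other integrin chain genes looked up had values. Itgb3, the β chain that pairs with Itgav in the vitronectin receptor, was the highest of them, at 25.6 with the empty virus and 21.9 with Ascl2 (log2 ratio -0.21). Itga6, a laminin receptor chain, was 7.93 and 8.45 (0.08), close to Itga4 with the empty virus but not with Ascl2. Itga5, the fibronectin receptor chain, was 1.39 and 1.24. Itga2b, the chain of the platelet fibrinogen receptor, was 1.31 and 1.82. Itga3, Itga10 and Itgb5 were between 0.743 and 1.24 in both libraries. Of the 6 with a value of at least 1, none passed 1.5-fold, where the shares over all genes were 5.01% higher and 4.31% lower, so the count does not set them apart. Their median log2 ratio was -0.06, and 2 of 6 were above 0. The myeloid and mucosal chains Itgam, Itgax, Itgad and Itgae had no value in these tables, which does not show that their RNA was absent.

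Among the 8 α chains with values, Itga4 made up 12.4% of the summed abundance with the empty virus and 19.0% with Ascl2. Itgal made up 57.9% and 53.8%, Itga6 12.4% and 11.5%, and Itgav 9.96% and 9.17%. Among the 5 β chains, Itgb2 made up 48.5% and 47.9%, Itgb1 26.3% and 29.7%, Itgb3 21.8% and 19.4%, and Itgb7 2.40% and 2.04%. The shift among α chains was thus that of Itga4, while the β chain with the largest change in share was Itgb1.

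**Figure D3:**
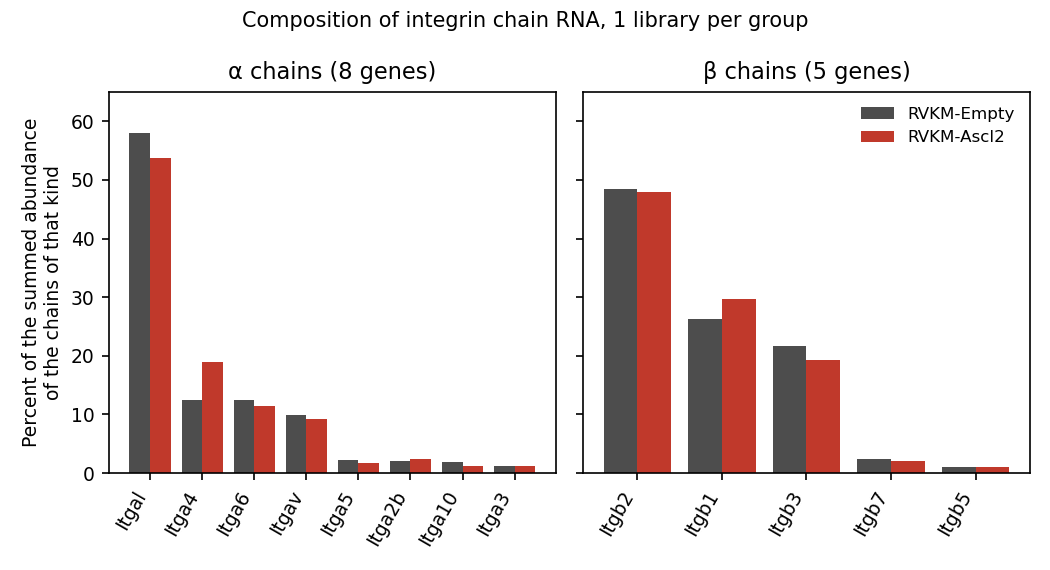
Share of each integrin chain gene in the summed length-scaled abundance of the 8 α chains (left) and the 5 β chains (right), in percent, with the empty-virus library in grey and the Ascl2 library in red, 1 library each. Itga4 is 12.4% of the α chains in grey and 19.0% in red. The order of the β chains is the same in both libraries.

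Of 16 further ligands and lateral partners of integrins, 11 had values and 8 reached a value of 1. None of these 8 passed 1.5-fold, against 5.01% of all genes higher and 4.31% lower. A ratio above 0 was found in 5 of 8, against 48.4% of all genes, and the median log2 ratio was 0.11, against -0.01. Cd47, an integrin-associated surface protein, was 90.4 with the empty virus and 107 with Ascl2 (log2 ratio 0.24). Cd81, a tetraspanin of the B cell coreceptor, was 165 and 149 (-0.14). Spp1, which encodes the integrin ligand osteopontin, was 4.10 and 5.29 (0.30), and F11r, which encodes the LFA-1 ligand JAM-A, was 0.939 and 1.28 (0.23). Vcam1 and Madcam1, the ligands of the Itga4 integrins, are made by stromal and endothelial cells and had no value here.

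Of 37 genes that activate integrins or tie them to actin, 32 had values and 30 reached a value of 1. Of these 30, 1 was at least 1.5-fold lower with Ascl2 and none was at least 1.5-fold higher, which is near the shares of 4.31% and 5.01% over all genes. A ratio above 0 was found in 11 of 30, against 48.4% of all genes, and the median log2 ratio was -0.11, against -0.01. The gene past 1.5-fold was Evl, an actin-elongating protein of the Ena/VASP family, at 108 with the empty virus and 70.3 with Ascl2 (log2 ratio -0.61). Rasgrp2, an exchange factor that loads Rap1, was 53.9 and 37.8 (-0.50), and Coro1a, the leukocyte coronin of cortical actin, was 461 and 347 (-0.41). Lims1, part of the integrin-linked kinase complex, went the other way at 22.2 and 29.2 (0.38). The Rap1 genes themselves were near 0, with Rap1a at 185 and 193 and Rap1b at 97.6 and 102.

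**Figure D4:**
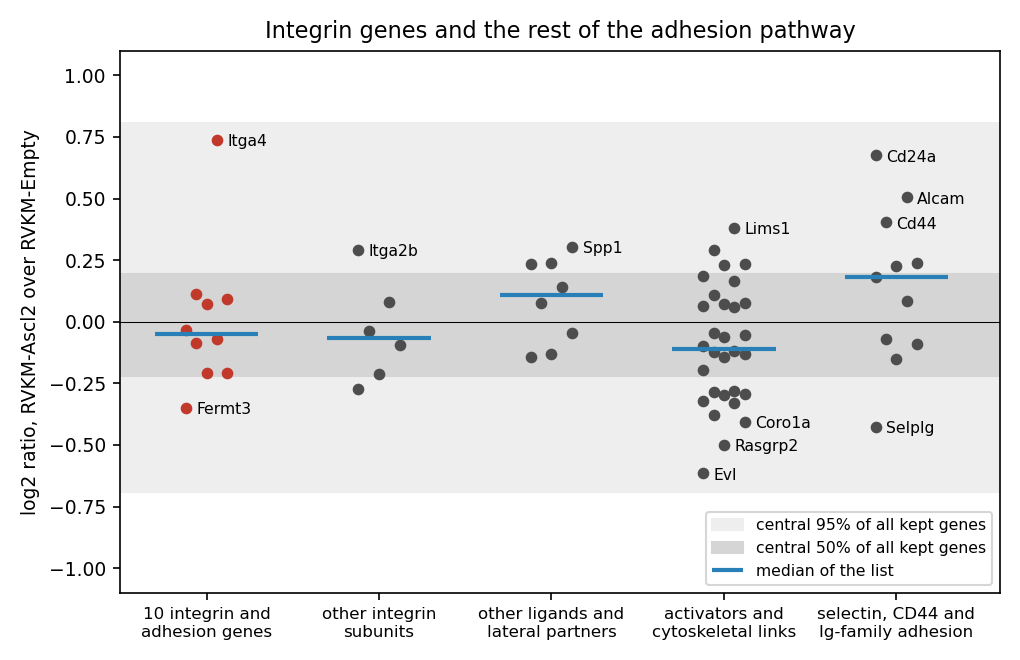
Log2 ratio of the Ascl2 over the empty-virus library for each gene with a value of at least 1, by list: the 10 integrin and adhesion genes (red) and 4 lists of related genes (dark points). Blue bars are list medians, and grey bands hold the central 95% and 50% of all genes. Itga4 at 0.74 lies inside the 95% band, and the median of the activator list, -0.11, lies inside the 50% band.

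Itga4 overlaps a neighbour. The gene lies on chromosome 2 from 79255426 to 79333114 on the plus strand, and Cerkl, on the minus strand from 79332491 to 79428988, shares its last 624 bases. The strand setting of the counting is not given in the sources used here, so reads from the shared stretch cannot be assigned to one gene. Cerkl was 7.97 with the empty virus and 6.89 with Ascl2 (log2 ratio -0.18), opposite in sign to Itga4, and Ube2e3, the nearest gene with a value on the other side, was 24.2 and 25.9 (0.09). Fermt3, on chromosome 19 from 6998958 to 7019469, overlaps Trpt1 by 1364 bases on the other strand, and Trpt1 was 2.15 and 1.74. Icam5, the nearest gene with a value after Icam1 on chromosome 9, was 0.551 and 0.440, far below Icam1 in both libraries.

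Genes with values most like those of Itga4 were found by Euclidean distance in log2 of the value plus 1 over the 2 libraries. Among the 3 nearest were Zfp120 (7.91 and 14.2, distance 0.03) and Uty (8.31 and 13.4, distance 0.08). A likeness over 2 libraries is a description of level and ratio and nothing more.

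Integrin genes are also made by cells other than B cells, so markers of these were read in the same libraries. Of 9 macrophage, monocyte and neutrophil markers, 6 had values, which summed to 24.8 with the empty virus and 31.4 with Ascl2. Lyz2 was the highest of them, at 16.0 and 21.4, and S100a8, S100a9 and Ly6g had no value. Of 8 T cell markers only Thy1 had a value, at 395 and 346, while Cd3e, Cd3d, Cd3g, Cd4, Cd8a, Cd8b1 and Trac had none. Of 6 dendritic cell markers, Flt3, Zbtb46 and Batf3 had values, summing to 49.5 and 42.8, while Siglech, Xcr1 and Clec9a had none. Batf3 was the highest of these, at 22.9 with the empty virus and 18.4 with Ascl2. Of 5 natural killer cell markers, 2 had values, summing to 2.35 and 2.23. Platelet markers (1 of 5 with a value), stromal markers (3 of 6) and endothelial markers (none of 5) summed to at most 1.55 in either library. A marker without a value is not shown to be absent, since low genes may have been left out before deposit. The part of other cells in the Itga4 difference was not tested.

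The ratios of the 10 genes were recomputed under other choices of pseudocount, filter, scaling and span correction. Itga4 lay between 0.55 and 0.82 in all of these, and passed 1.5-fold in all but the one with a pseudocount of 5. The filter choices select genes and leave each ratio as it was, so they could not change that of Itga4. Itgal and Itgb1 were above 0 and Itgb7, Icam2 and Fermt3 below 0 in each one that gave a value. The sign of Itgav, Itgb2, Icam1 and Tln1 differed in 1 alternative each.

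**Figure D5:**
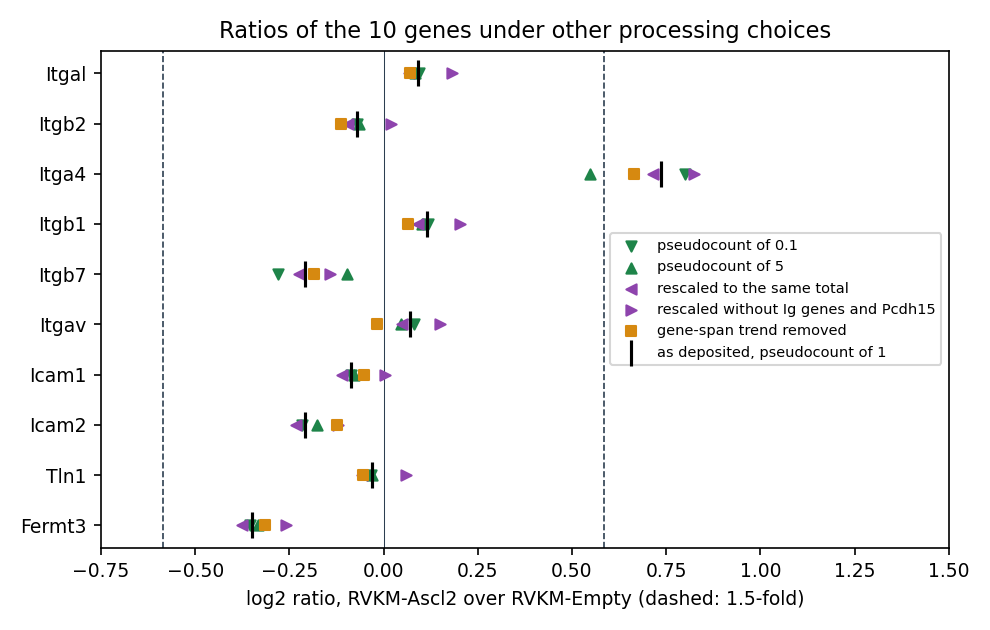
Log2 ratio of the Ascl2 over the empty-virus library (horizontal axis) for each of the 10 genes, as deposited with a pseudocount of 1 (black bars) and under 5 other choices (coloured symbols). Dashed lines mark 1.5-fold. Itga4 falls below the upper line with a pseudocount of 5, at 0.55, and Itgb2, Icam1, Tln1 and Itgav each have 1 symbol across 0.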

How the data were processed

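RNA abundances of 2 libraries, 1 with RVKM-Empty and 1 with RVKM-Ascl2, were taken as deposited. Groups come from the sample titles. The deposited signal, 1 value for each gene and never 0, is an abundance scaled by the authors, and for the authors' quantifier, annotation, strand setting and unit name the sources used here give nothing. The submitters' processing notes name mm10, Trim Galore, Bowtie2, Picard and MACS2, with no roles. Every gene reached at least 0.475 in 1 library, which points to a filter on low genes before deposit. Since no value was 0, genes at 0 in 1 library may also have been left out. A gene without a value is thus not shown to be absent from both libraries. The 1842 genes under 1.2 in both libraries held 1828 distinct values with the empty virus, so low values share no common step, which is why they are read as scaled per gene. The ratio of low values was most often between 1.14 and 1.15 (31 genes, median 11 in other intervals of 0.01), which is read as the depth of the empty-virus library over that of the Ascl2 library.

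The log2 ratio used a pseudocount of 1, and only genes reaching 1 in either of the libraries entered. Past 1.5-fold means a log2 ratio beyond 0.58 on that scale. No count model was used and no p-value was computed. The genes and lists were chosen with earlier results of these data known. Named genes were all 10 genes, other integrin chains with a value, up to 4 genes of each other list with the largest ratios, and the 3 genes nearest to Itga4. Some genes that the rule takes are not reported here. Genes named beside these (Rap1a, Rap1b, Cerkl, Ube2e3, Trpt1, Creb3, Icam5 and genes without a value) were chosen after values were seen. Identifiers had a symbol for 13752 of 13792 genes, all 10 included. Coordinates, spans and promoters are from RefSeq, GRCm38.p6, the assembly called mm10. The span trend was a running median over 501 genes computed without immunoglobulin segments. The fold calls and the removal of the span trend were tested on simulated data, and the other steps were not. The planted fold changes were larger than that of Itga4 and the depth was assumed, so differences near 1.5-fold were not covered. All steps were run in Python 3.11.15 with pandas 2.3.3 and NumPy 2.4.6.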

Additional observations from a re-analysis of the deposited data

How the results depend on the processing

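The count of 1 of the 10 genes at least 1.5-fold higher became 0 with a pseudocount of 5, where Itga4 had a log2 ratio of 0.55, and 0 with a threshold of 2-fold. It was 1 under the other 8 of 10 alternatives, and the count at least 1.5-fold lower was 0 under all 10. Not all of these could have moved the call. The filter choices leave the log2 ratio of Itga4 at 0.74. Rescaling to the same total or to a median log2 ratio of 0 used log2 factors of only -0.03 and 0.01. The median of the 10 genes ranged from -0.08, rescaled to the same total, to 0.04, rescaled without immunoglobulin genes and Pcdh15, so it gives no direction. That last rescaling adds 0.09 to the log2 ratio. Over all genes the counts past 1.5-fold were 615 higher and 530 lower (53.7% higher), 801 and 365 (68.7%) with that rescaling, and 572 and 581 (49.6%) rescaled to the same total. Removal of the span trend could be run on the 11327 genes of known span, where the counts were 495 and 445 (52.7%) before it and 605 and 285 (67.98%) after it. With pseudocounts of 0.1 and 5 they were 925 and 792, and 253 and 191, and with no pseudocount, an alternative chosen after seeing the data, 975 and 842. A filter of 5 gave 379 and 353 and left Itgb7 out. No paired analysis was possible because each group had 1 library, and no replicate could be left out. Absolute depth is unknown, so the counting error of Itgb7 and other low genes cannot be given.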

Other observations

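Other adhesion genes of B cells were measured in the same libraries. All 11 selectin, CD44 and immunoglobulin-family genes looked up reached a value of 1, 7 had a ratio above 0, and the median log2 ratio was 0.18, beside -0.01 over all genes. Cd24a, a glycosylated surface protein of B cell subsets, was the 1 gene at least 1.5-fold higher with Ascl2, at 99.1 with the empty virus and 159 with Ascl2 (log2 ratio 0.68). Alcam, which encodes the CD6 ligand CD166, was 17.2 and 24.8 (0.50), and Cd44, the hyaluronan receptor of activated lymphocytes, was 100.4 and 133 (0.40). Selplg, the P-selectin ligand, was lower, at 194 and 144 (-0.43). None of the 11 was at least 1.5-fold lower. Over all genes 5.01% were at least 1.5-fold higher and 4.31% lower, so these counts do not set the list apart.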
